A study of Danio rerio with 9 samples.

Results

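The keratins of the enveloping layer and periderm were examined in zebrafish embryos that lacked MondoA, a glucose-sensing transcription factor encoded by *mondoa* (gene symbol *mlxip*). The 10 genes were taken from a list of names and not by a threshold on their values: *krt4*, *krt5*, *krt8*, *krt18a.1*, *krt17*, *krt92*, *krt97*, *cyt1*, *cyt1l* and *krt1-19d*. Each symbol matched a single identifier among the 32055 rows of the count table. RNA sequencing covered 9 libraries from pools of whole embryos, 3 in each of 3 groups. MZ*mondoa* mutants carried the allele ka405, a small deletion that shifts the reading frame, and came from homozygous mutant parents, so that both the egg and the embryo lacked an intact gene. The mutants were sorted by eye into embryos with disturbed epiboly, the movement by which the cell cap covers the yolk ("affected") and embryos whose epiboly looked normal ("unaffected"). Wild-type (WT) embryos with normal epiboly were the controls. The sample records of the affected libraries are numbered apart from those of the unaffected and WT libraries. Whether they were prepared or sequenced apart is not stated. Any such difference could not be told apart from that between affected and other embryos. The study describes wild-type stocks of AB or golden descent and does not say that they were siblings of the mutants. All labels give 5 hours post fertilization, which disagrees with the late epiboly at which the study's methods place sampling.

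Keratins build the intermediate filaments of epithelial cells. A filament needs an acidic type I and a basic type II keratin, which pair with each other, so both kinds have to be made in the same cell. In the zebrafish gastrula keratin genes are best known from the enveloping layer (EVL), the flat outermost epithelium that spreads over the yolk during epiboly and later becomes the periderm, the surface layer of the early skin. Of the 10 genes, *krt4*, *krt5* and *krt8* encode type II keratins, and the other 7 encode type I keratins.

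The libraries held 29653702 to 32417640 exonic counts in affected, 27567897 to 30897569 in unaffected and 31249988 to 39299268 in WT libraries. *mondoa* (*mlxip*) itself had 12.8 to 16.1 CPM (a library's counts scaled to a common depth by TMM, the trimmed mean of M-values) in affected and 13.01 to 21.01 CPM in unaffected libraries, against 51.9 to 113 CPM in WT, so both mutant groups lay below WT. Defining genes of the EVL were present in every library, among them the transcription factors *grhl3* and *klf17* and the claudin gene *cldne*, which had mean levels over the 9 libraries of 49.7, 84.4 and 349 CPM. In pools of whole embryos, fewer EVL cells and less keratin RNA per cell cannot be told apart.

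Of the 10 keratins, 9 passed the filter on low counts. The exception was *krt1-19d* (ENSDARG00000023082), which had 0, 0 and 3 counts in affected libraries 1 to 3, 1, 1 and 2 counts in unaffected libraries and 6, 0 and 4 counts in WT libraries. With 17 counts in all, *krt1-19d* was not tested. A count of 0 allows up to 3 counts, or 0.108 CPM or less in each library (counting error only). The 10 genes together took 0.933%, 0.975% and 1.08% of all counts in affected libraries 1 to 3, 1.32%, 1.40% and 1.56% in unaffected libraries and 1.17%, 1.13% and 1.45% in WT libraries. Most of these counts came from *krt4*, *krt8*, *krt18a.1* and *krt5*. CPM is not corrected for transcript length, so a higher CPM of a gene than of another does not mean more transcripts, and differences are given for each gene between groups.

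**Figure D1:**
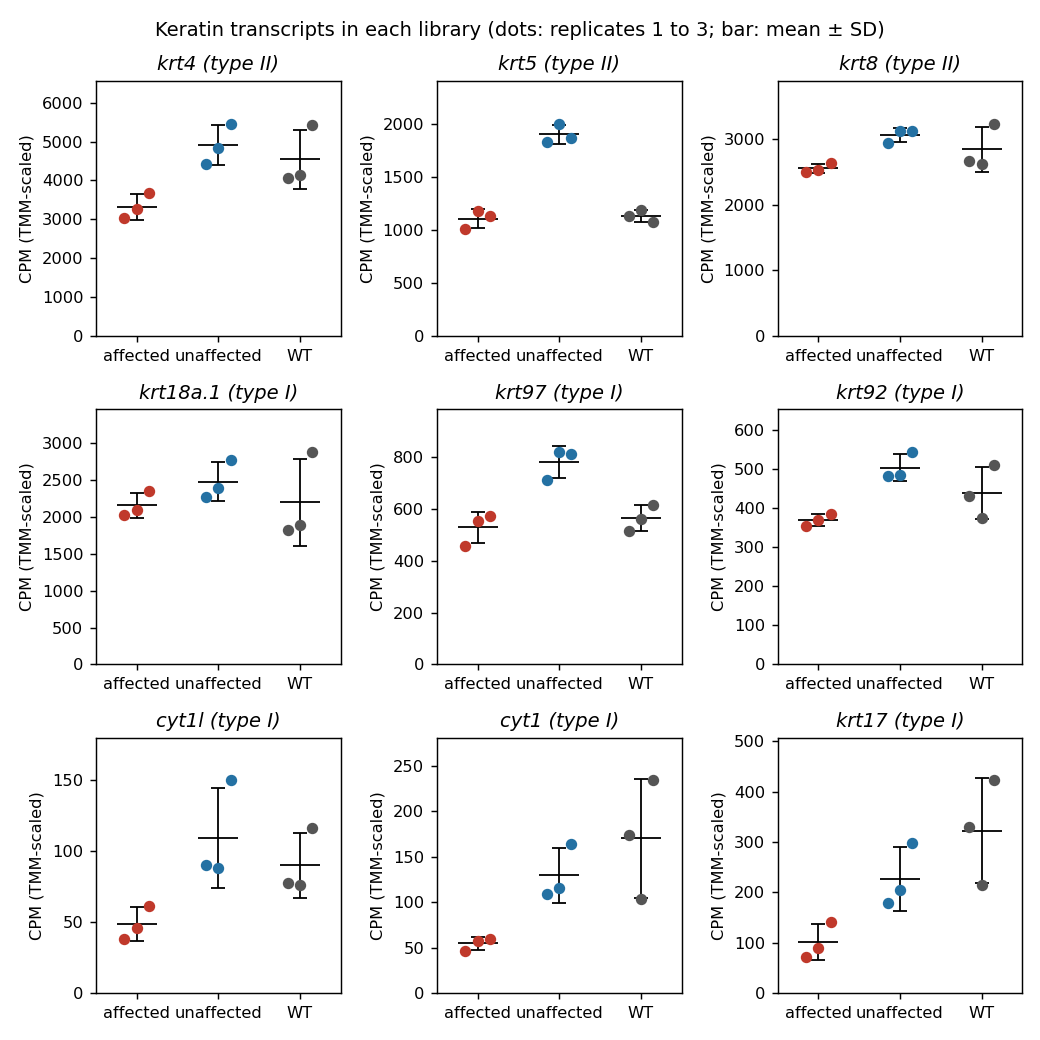
Level in CPM after TMM scaling (y axis from 0) of the 9 expressed keratins in each library; dots are replicates 1 to 3 of the affected, unaffected and WT groups and bars show mean ± SD. The affected mean is the lowest of the 3 for all 9 genes, and the unaffected mean is the highest for 7 of them, the exceptions being *krt17* and *cyt1*.

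The group of affected embryos had the lowest mean for all 9 genes. Against WT, 4 of the 9 fell (edgeR quasi-likelihood test, adjusted p under 0.05) and none rose. For comparison, 30.3% of the 16962 genes tested differed by the same rule, 15% being lower and 15.4% higher. The 4 genes were *krt17*, *cyt1*, *cyt1l* and *krt4*, and they are the same 4 whose affected libraries all lay below all WT libraries, which was seen in 22.5% of all genes. All 9 log2 fold changes were negative, beside 51.7% over all genes. Their median was -0.25, with values from -1.68 to -0.03, and that of all genes was -0.02.

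*krt17* (ENSDARG00000094041) encodes a type I keratin. It had 72.4, 88.5 and 141 CPM in affected libraries 1 to 3, against 331, 214 and 422 CPM in WT libraries. The highest affected library was below the lowest WT library, and the group values were 101 ± 35.8 CPM in affected and 322 ± 105 CPM in WT embryos (SD, n = 3 each). The log2 fold change was -1.68 (SE 0.31, edgeR adjusted p = 0.00291), which leaves 0.312 times the WT level.

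*cyt1* (ENSDARG00000092947) is annotated by name as the type I cytokeratin of the enveloping layer. It had 46.2, 57.5 and 59.9 CPM in affected libraries, against 174, 103 and 234 CPM in WT libraries. The groups did not overlap, although WT libraries differed among themselves by more than affected ones (54.5 ± 7.33 CPM in affected, 170 ± 65.5 CPM in WT embryos, SD, n = 3 each). The log2 fold change was -1.64 (SE 0.27, edgeR adjusted p = 0.00175). The calls of *krt17* and *cyt1* held under each of the 17 other settings tried, with adjusted p up to 0.0173 and 0.0112.

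The like gene *cyt1l* (ENSDARG00000036832) had 37.8, 45.9 and 61.2 CPM in affected libraries, against 77.4, 76.0 and 116 CPM in WT libraries. It fell by 0.90 on the log2 scale (SE 0.25, edgeR adjusted p = 0.0232). *krt4* (ENSDARG00000017624), a type II keratin widely used to mark the EVL and periderm, had 3032, 3254 and 3683 CPM in affected libraries, against 4061, 4151 and 5421 CPM in WT libraries. It fell by 0.45 (SE 0.14, edgeR adjusted p = 0.0317). Both calls were lost in 3 of the 17 other settings, while both log2 fold changes stayed negative in all 17. Without affected replicate 1, affected replicate 2 or WT replicate 3 the adjusted p was 0.0902, 0.0795 and 0.0664 for *cyt1l* and 0.116, 0.102 and 0.0852 for *krt4*, and 2 of the 9 keratins then passed.

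The other 5 expressed keratins did not pass in affected embryos, although *krt92* did with the replicate number as a block or without WT replicate 2 (adjusted p = 0.0379 and 0.0384). The mammalian counterparts of *krt8* and *krt18a.1* pair in simple epithelia. *krt8* (ENSDARG00000058358) had 2500 to 2631 CPM in affected and 2623 to 3237 CPM in WT libraries, with a log2 fold change of -0.16 (95% confidence interval -0.38 to 0.06). *krt18a.1* (ENSDARG00000018404) had 2027 to 2355 CPM in affected and 1829 to 2882 CPM in WT libraries, a range set by WT replicate 3, and its log2 fold change was -0.03 (95% interval -0.40 to 0.35). For *krt92* (ENSDARG00000036834) it was -0.25 (95% interval -0.50 to 0.00), for *krt97* (ENSDARG00000000212) -0.09 (-0.34 to 0.16) and for *krt5* (ENSDARG00000058371) -0.03 (-0.24 to 0.17). Decreases of the size seen in *krt17* and *cyt1* therefore lie outside the intervals of all 5 genes. The sign of *krt5*, *krt18a.1* and *krt97* was positive in some fits that left out a library, with values of 0.03 or less for *krt5*, 0.22 or less for *krt18a.1* and 0.01 for *krt97*.

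In unaffected embryos a different set of keratins passed. Against WT, 2 of the 9 keratins rose and none fell, beside 9.6% of all genes that differed, 4.65% higher and 4.95% lower. A further edgeR fit of all 9 libraries took the replicate number as a block. By that fit 2758 genes differed, against 1628 without the block, and 2 keratins. Of the 9 keratins 7 had a log2 fold change above 0, beside 49.1% of all genes. The median log2 fold change of the keratins was 0.17, with values from -0.51 to 0.75, and that of all genes was -0.01.

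*krt5*, a type II keratin, had 1831, 2007 and 1873 CPM in unaffected libraries 1 to 3, against 1135, 1190 and 1081 CPM in WT libraries. All unaffected libraries were far above all WT libraries and the spread within either group was small (1904 ± 92.0 CPM in unaffected, 1135 ± 54.3 CPM in WT embryos, SD, n = 3 each). The log2 fold change was 0.75 (SE 0.09, edgeR adjusted p = 0.000878), a 1.68-fold rise that held under each of the 17 other settings (adjusted p up to 0.00559). *krt97*, a type I keratin, had 710.1, 819 and 811 CPM in unaffected libraries, against 513, 562 and 614 CPM in WT libraries. It rose by 0.47 (SE 0.11, edgeR adjusted p = 0.0268). This call was lost without unaffected replicate 2 or 3 or WT replicate 1 or 2 (adjusted p = 0.0911, 0.0515, 0.0883 and 0.063), with log2 fold changes from 0.41 to 0.54 over all settings. For both genes all 3 unaffected libraries were above all 3 WT libraries, which was seen in 13.9% of all genes.

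The genes that fell in affected embryos did not pass in unaffected embryos. *krt17* had 178, 204 and 299 CPM in unaffected libraries, against 331, 214 and 422 CPM in WT libraries, and the groups overlapped (log2 fold change -0.51, 95% interval -1.17 to 0.15). *cyt1* had 109, 115 and 164 CPM in unaffected libraries, with a log2 fold change of -0.40 (-0.98 to 0.18). *cyt1l* had 90.1, 87.8 and 149.7 CPM in unaffected libraries (0.28, -0.27 to 0.84), and its sign turned to -0.01 without unaffected replicate 3. *krt4* had 4430, 4846 and 5465 CPM in unaffected libraries (0.11, -0.19 to 0.42). The intervals of *krt8* (-0.12 to 0.33), *krt18a.1* (-0.20 to 0.55) and *krt92* (-0.05 to 0.45) also held 0.

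**Figure D2:**
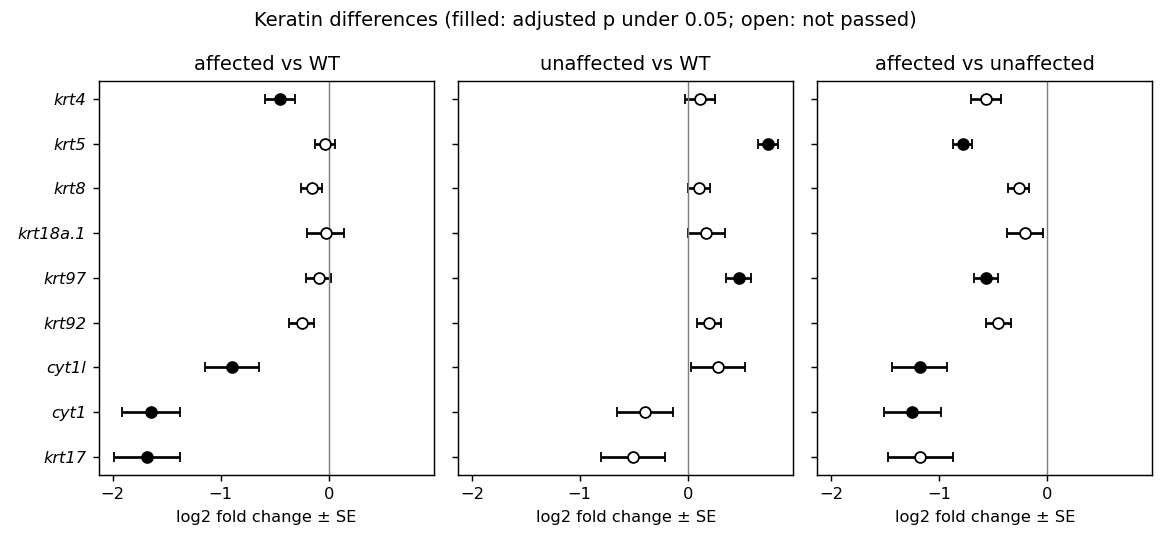
Log2 fold change ± SE (x axis) of the 9 expressed keratins in each comparison; filled points passed the edgeR test (adjusted p under 0.05) and open points did not. Filled points are *krt4*, *krt17*, *cyt1* and *cyt1l* in affected against WT, *krt5* and *krt97* in unaffected against WT, and *krt5*, *krt97*, *cyt1* and *cyt1l* in affected against unaffected embryos.

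The comparison of affected with unaffected embryos sets mutants of the same genotype against each other. The paper reports severely delayed epiboly, with an arrest midway, in affected mutants. In both comparisons of affected embryos, a difference in developmental stage therefore cannot be told apart from other differences. All 9 keratins had a negative log2 fold change, beside 51% of all genes, and for 8 of the 9 every affected library was below every unaffected library, beside 12.1% of all genes. The exception was *krt18a.1*, with 2027, 2093 and 2355 CPM in affected against 2267, 2397 and 2779 CPM in unaffected libraries. By the edgeR test 4 of the 9 fell and none rose, where 2.99% of all genes differed, 1.11% being lower and 1.88% higher. The median log2 fold change was -0.56 for the keratins and -0.01 for all genes. Affected libraries are shared with the comparison against WT, and unaffected libraries with the other one, so the 3 comparisons are not independent.

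*krt5* had 1012, 1181 and 1133 CPM in affected libraries, against 1831, 2007 and 1873 CPM in unaffected libraries. It fell by 0.78 on the log2 scale (SE 0.09, edgeR adjusted p = 0.00570), and the call held under each of the 17 other settings (adjusted p up to 0.0343). *krt97* had 458, 553 and 573 CPM in affected libraries, all below the 710.1, 819 and 811 CPM of unaffected libraries, and fell by 0.56 (SE 0.11, edgeR adjusted p = 0.0295). *cyt1* fell by 1.25 (SE 0.27, edgeR adjusted p = 0.0368) and *cyt1l* by 1.18 (SE 0.25, edgeR adjusted p = 0.0386), with the library values given above. The calls of *krt97*, *cyt1* and *cyt1l* were lost in 5, 6 and 5 of the 17 other settings, each of which left out a library. Over all settings their log2 fold changes stayed negative, from -0.63 to -0.47, -1.36 to -1.04 and -1.38 to -0.88 in the same order. Without affected replicate 1, affected replicate 2, unaffected replicate 1 or unaffected replicate 3 only *krt5* of the 9 passed, and without WT replicate 1 only *krt5* and *krt97* did. Leaving out affected replicate 3 also ended the call of *cyt1* (adjusted p = 0.0714) and leaving out unaffected replicate 2 that of *krt97* (adjusted p = 0.0618). Over all 17 settings the adjusted p ran up to 0.111 for *krt97*, 0.147 for *cyt1* and 0.151 for *cyt1l*.

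A further 3 keratins were close to the threshold in this comparison. The log2 fold changes were -0.56 for *krt4*, -1.17 for *krt17* and -0.45 for *krt92* (SE 0.14, 0.30 and 0.11), with edgeR adjusted p of 0.0595, 0.0688 and 0.0657. In the edgeR fit of all 9 libraries with the replicate number as a block (the replicate block), all 3 passed (adjusted p = 0.00280, 0.00366 and 0.0118). By that fit 7 of the 9 keratins and 1399 genes in all differed, against 4 and 507 without the block. DESeq2 also gave 7 keratins. *krt92* had 352, 369 and 383 CPM in affected libraries, against 482, 483 and 543 CPM in unaffected libraries. *krt8* had 2500, 2526 and 2631 CPM in affected and 2940, 3117 and 3127 CPM in unaffected libraries and did not pass (log2 fold change -0.26, 95% interval -0.48 to -0.04, edgeR adjusted p = 0.196), nor did *krt18a.1* (-0.20, -0.58 to 0.17, edgeR adjusted p = 0.581).

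The keratin genes showed different orders of the groups, which is a description made after their values were seen. For *krt5* and *krt97* affected and WT libraries overlapped and unaffected libraries stood above both. For *krt4* and *cyt1l* unaffected and WT libraries overlapped and affected libraries stood below both. For *krt17* and *cyt1* the mean was lowest in affected, intermediate in unaffected and highest in WT embryos, and unaffected and WT libraries again overlapped. For *krt8*, *krt92* and *krt18a.1* affected and WT libraries overlapped, as did unaffected and WT libraries.

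The place of the genes on the chromosomes was then considered. In the RefSeq annotation of another assembly, GRCz12tu, *krt5*, *krt8* and *krt18a.1* follow each other directly on chromosome 23, *krt4* lies apart on chromosome 6 and *krt97* on chromosome 22. The other 5 genes belong to an unbroken run of 7 type I keratin genes on chromosome 19, in the order *krt1-19d*, *krt1-19e*, *krt92*, *cyt1l*, *cyt1*, *krt17* and *krt91*. Neither of the first genes of the run, *krt1-19d* and *krt1-19e*, was expressed enough to be tested. Along the rest, the log2 fold change in affected against WT embryos was -0.25 for *krt92*, -0.90 for *cyt1l*, -1.64 for *cyt1*, -1.68 for *krt17* and -1.56 for *krt91*. In unaffected against WT embryos the values in the same order were 0.20, 0.28, -0.40, -0.51 and -0.55, and none of them passed. By contrast, *krt5* rose in unaffected embryos while its neighbours *krt8* and *krt18a.1* did not pass. Reads of these related genes that map to several of them were lost to the count. How alike their sequences are was not examined, so the split of reads between them is uncertain.

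**Figure D3:**
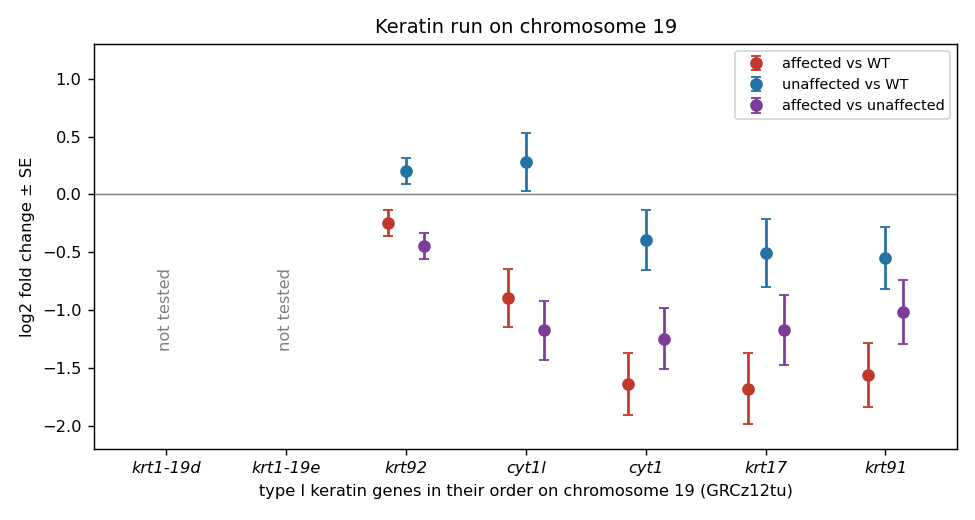
Log2 fold change ± SE (y axis) of the type I keratin genes of chromosome 19, placed in their order in GRCz12tu (x axis, not to scale), for each comparison. In affected against WT embryos the values go from -0.25 at *krt92* to -1.64, -1.68 and -1.56 at *cyt1*, *krt17* and *krt91*; *krt1-19d* and *krt1-19e* were not tested.

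Ratios between genes within a library do not depend on how libraries are scaled. The ratio of *krt17* to *krt92* counts was 0.205, 0.240 and 0.368 in affected libraries 1 to 3, 0.369, 0.422 and 0.551 in unaffected libraries and 0.770, 0.571 and 0.830 in WT libraries. These ranges did not overlap between any of the groups, though the highest affected and lowest unaffected libraries were almost level. The ratio of *krt5* to *krt8* was 0.405 to 0.467 in affected and 0.599 to 0.644 in unaffected libraries, against 0.334 to 0.454 in WT libraries. Here only the unaffected libraries stood apart. Both ratios were chosen after the values of the genes were seen and carry no test.

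The balance between the kinds of keratin was also compared. The type II genes summed to 6984 ± 452 CPM in affected, 9877 ± 635 CPM in unaffected and 8524 ± 1053 CPM in WT embryos, and the type I genes to 3258 ± 293, 4229 ± 467 and 3784 ± 863 CPM in the same order (SD, n = 3 each). The ratio of type II to type I was 2.15 ± 0.06 in affected, 2.34 ± 0.12 in unaffected and 2.29 ± 0.22 in WT embryos, and the range of affected libraries (2.08 to 2.19) lay below that of unaffected libraries (2.21 to 2.43) and within that of WT libraries (2.04 to 2.47). The type II sums of affected libraries (6543 to 7447 CPM) lay below those of unaffected (from 9201 CPM) and WT libraries (from 7869 CPM). Of the type II genes only *krt4* passed in affected against WT embryos, and its call was lost in 3 of the 17 other settings. The type I sums of affected libraries (2994 to 3573 CPM) lay below those of unaffected libraries (from 3836 CPM) and overlapped those of WT libraries (3219 to 4777 CPM). The level of the ratio has no meaning as a number of molecules, since it was not corrected for length. *krt4* made up 31.8% to 33.4% of the summed CPM of the 10 keratins in affected and 34.0% to 35.9% in unaffected libraries, against 36.2% to 37.3% in WT libraries, and these ranges did not overlap.

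The keratin genes outside the 10 were examined next. Of 12 other keratin identifiers, 4 were tested, and in affected against WT embryos 3 of these fell and none rose, where 15% of all genes were lower. Without affected replicate 1 or WT replicate 3 the count was 1. *krt99* (ENSDARG00000019365) had 227 ± 55.7 CPM in affected and 416 ± 139 CPM in WT embryos (SD, n = 3 each; log2 fold change -0.87, edgeR adjusted p = 0.0226). *krt91* (ENSDARG00000036830), the last gene of the run on chromosome 19, had 5.79 ± 0.93 CPM in affected and 17.1 ± 7.39 CPM in WT embryos (log2 fold change -1.56, edgeR adjusted p = 0.00257). The third, *krt1-c5*, was near the limit of detection, with 0.211 CPM in affected and 0.923 CPM in WT embryos on average (log2 fold change -2.13, edgeR adjusted p = 0.0407). None of the 4 passed in either of the other comparisons, but 2 did between affected and unaffected embryos with the replicate block. *krt99* lost its call in 3 of 17 settings (adjusted p up to 0.0859) and *krt1-c5* in 4 of the 16 in which it was tested (up to 0.134), while *krt91* kept its call in all 17.

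Keratin filaments end in desmosomes and are bound by plakins, large linker proteins, so these partner genes were compared as well. Of 15 tested genes, 5 fell and 1 rose in affected against WT embryos, where 30.3% of all genes differed and 15% were lower. The median log2 fold change was -0.21, against -0.02 for all genes. The 5 genes were *ppl* (periplakin), *evpla* (envoplakin), *eppk1* (epiplakin), *dst* (dystonin) and the identifier ENSDARG00000076673, which shares the symbol *dsp* (desmoplakin) with another identifier. *ppl* had 993 ± 29.3 CPM in affected, 1649 ± 54.4 CPM in unaffected and 1630 ± 126 CPM in WT embryos (SD, n = 3 each). It fell in affected embryos against WT by 0.71 (SE 0.09, edgeR adjusted p = 0.000389). It also fell against unaffected embryos by 0.73 (SE 0.09, edgeR adjusted p = 0.00570), and both calls held under each of the 17 other settings. *eppk1* had 957 ± 281 CPM in affected, 1685 ± 383 CPM in unaffected and 1726 ± 88.2 CPM in WT embryos. It fell against WT (log2 fold change -0.85, edgeR adjusted p = 0.0119), and against unaffected embryos the difference of -0.82 did not pass (edgeR adjusted p = 0.0654). *evpla* and the *dsp* identifier fell by 0.56 and 0.45 against WT (edgeR adjusted p = 0.00283 and 0.00512). The *dsp* identifier also fell by 0.65 against unaffected embryos (edgeR adjusted p = 0.0124), a call lost in 3 of 17 settings (adjusted p up to 0.0685). The 1 gene that rose in affected embryos was an identifier of *jup* (plakoglobin, ENSDARG00000070787; log2 fold change 0.34, edgeR adjusted p = 0.0185, up to 0.0633 over the settings). The weakly expressed *dst* was lower than WT in both mutant groups, with 1.01 CPM in affected and 0.962 CPM in unaffected against 2.04 CPM in WT embryos. In unaffected against WT embryos 2 of the 15 rose (the *jup* identifier and *pkp3a*, a plakophilin gene, by 0.34 and 0.41) and *dst* fell. Of all genes 4.65% were higher and 4.95% lower. The *jup* identifier and *pkp3a* each lost the call in 8 of 17 settings (adjusted p up to 0.139 and 0.126). *dst* lost it in 2 of 17 (up to 0.066), and 0 to 5 genes passed over the settings.

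Other genes of the EVL did not follow a single direction in affected against WT embryos. Of 28 tested junction and surface genes, 9 rose and 7 fell in affected against WT embryos (median log2 fold change 0.11), where 15.4% of all genes were higher and 15% lower. Among the rises were *epcam* (epithelial cell adhesion molecule, 1.04, edgeR adjusted p = 0.00475), *cldnb* (a claudin, 0.94, edgeR adjusted p = 0.0115), the EVL marker *cldne* (0.41, edgeR adjusted p = 0.0137) and the annexin *anxa1*, with the highest average CPM of the list and 991 to 1337 CPM in affected and 504 to 852 CPM in unaffected, against 184 to 441 CPM in WT libraries (2.01, edgeR adjusted p = 0.00108). Among the falls were the annexins *anxa1b* (-2.34, edgeR adjusted p = 0.000737) and *anxa1d* (-1.44, edgeR adjusted p = 0.0142, lost in 2 of 17 settings, up to 0.0582) and *eps8l1a*, a gene of an actin regulator family (-1.62, edgeR adjusted p = 0.00142). In affected against unaffected embryos 2 of the 28 fell and none rose, where 1.11% of all genes were lower (median log2 fold change 0.07). They were *eps8l1a* (-1.45, edgeR adjusted p = 0.0214) and *scel* (-1.05, edgeR adjusted p = 0.0447). Over the settings 0 to 9 of the junction and surface genes passed there. Of 18 tested transcription factors of the EVL and epidermis, 4 rose and 3 fell in affected against WT embryos, beside the 30.3% of all genes that differed. Without affected replicate 1 or WT replicate 2, 4 of the 18 passed. The rises included *elf3* (1.59, edgeR adjusted p = 0.0368), a call lost in 4 of 16 settings (up to 0.156). This gene was near the limit of detection, with 1.29 CPM in affected and 0.421 CPM in WT embryos on average. Among the falls were *grhl2* (-0.83, edgeR adjusted p = 0.0401), lost in 6 of 17 settings (up to 0.14), and *gata3* (-0.66, edgeR adjusted p = 0.00919). The grainyhead-like factors, regulators of epithelial surface genes, were split in affected against WT embryos. *grhl1* (0.84, edgeR adjusted p = 0.000325), *grhl2a* (1.51, edgeR adjusted p = 0.00189) and *grhl3* (0.59, edgeR adjusted p = 0.0109) rose, whereas *grhl2* of the same family fell, as given above. The epidermal factor *tp63* fell by 1.14 (edgeR adjusted p = 0.0334), a call lost in 4 of 17 settings (adjusted p up to 0.123), whereas *tfap2a*, with the highest average CPM of the list, had a log2 fold change of -0.19 and *klf17* 0.16 (edgeR adjusted p = 0.247). In unaffected against WT embryos only *grhl1* of the 18 passed (0.49, edgeR adjusted p = 0.0126), a call lost in 2 of 17 settings. Of all genes 9.6% differed there. Between affected and unaffected embryos only *grhl2a* of the 18 passed (1.10, edgeR adjusted p = 0.0447), and 0 to 4 did over the settings.

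Markers of other parts of the embryo moved in the same libraries. Of 11 tested genes of the yolk syncytial layer, 7 rose and none fell in affected against WT embryos, led by *hnf4a* (log2 fold change 1.48), *mxtx1* (1.01) and *gata6* (0.98), where 15.4% of all genes were higher. In affected against unaffected embryos 4 rose, where 1.88% of all genes were higher. This count was 0 without affected replicate 2, unaffected replicate 1 or unaffected replicate 3 and 1 without affected replicate 1, and 7 genes differed with the replicate block or by DESeq2. The summed level of the list was 6043 to 6681 CPM in affected and 4411 to 4790 CPM in unaffected, against 4161 to 4909 CPM in WT libraries. Among its defining genes *mxtx2* was near 0, with at most 4 counts in a library. Also weakly expressed, *slc40a1* averaged 0.807 CPM in affected and 0.940 CPM in WT embryos. The defining genes *hnf4a* and *apoa1a* averaged 120 and 43.2 CPM in affected, against 43.0 and 24.9 CPM in WT embryos. Of 16 tested deep cell genes, 5 rose (the largest rise being *sox32*, 0.98) and 3 fell (the largest fall being *otx2*, -0.66) in affected against WT embryos, beside the 30.3% of all genes that differed. The count of 8 fell to 5 without affected replicate 1, affected replicate 2 or WT replicate 1 and to 4 without WT replicate 2. The list had a summed level of 2667 to 3087 CPM in affected, 2709 to 2968 CPM in unaffected and 2489 to 2848 CPM in WT libraries. The part of either in the keratin differences was not tested. Intermediate filament genes other than keratins were the last list. Of 7 tested, 2 rose (*lmnl3* by 1.21 and *ina* by 0.59) and *lmna* fell by 0.51 in affected against WT embryos, beside the 30.3% of all genes that differed, and *lmnb2* (lamin B2), with the highest average CPM of the list, had a log2 fold change of -0.07 (edgeR adjusted p = 0.545). In unaffected against WT embryos *lmnl3* also rose (0.90, edgeR adjusted p = 0.0101), where 9.6% of all genes differed. There *lmna* also fell (-0.40, edgeR adjusted p = 0.0303), a call lost in 7 of 17 settings.

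**Figure D4:**
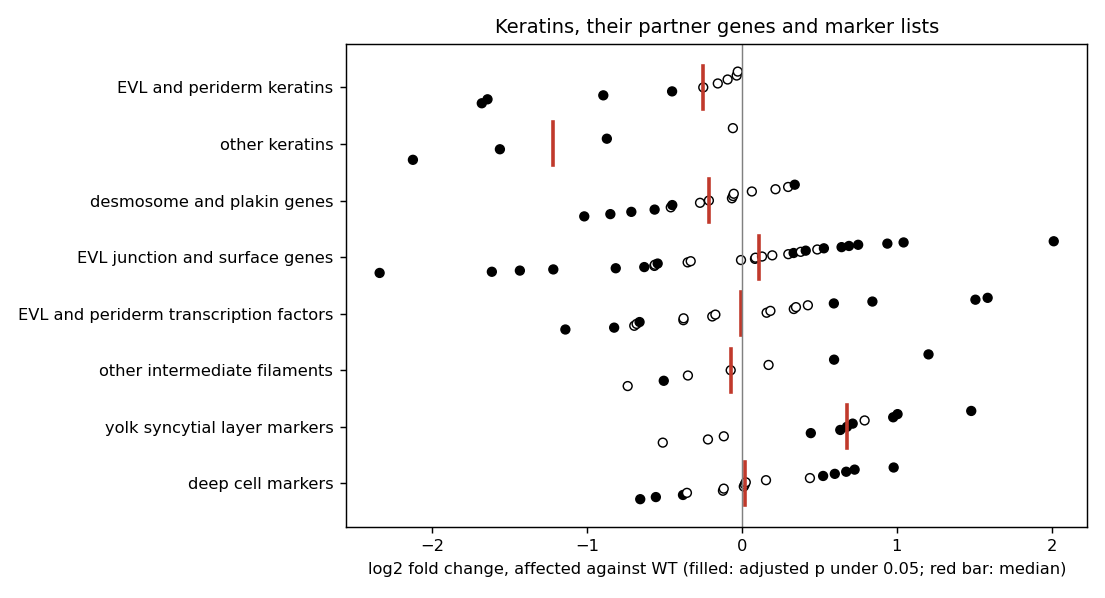
Log2 fold change in affected against WT embryos (x axis) of each tested gene of the keratins examined here, the other keratins, their partner genes and the marker lists; filled points passed the edgeR test (adjusted p under 0.05), open points did not, and the red bar is the median of the list. All 9 expressed keratins lie at or below -0.03, whereas the yolk syncytial layer list has a median of 0.68.

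Finally, genes whose profile over the 9 libraries was most like that of the 3 keratins with the highest CPM were sought among 8451 named genes outside the keratins. Likeness was measured as the root mean square difference of log2 CPM, each gene centred on its own mean. For *krt4* the closest were *sh3gl1a*, *itpka* and *firrm* (differences of 0.0700, 0.0967 and 0.0975, against a median of 0.337 over all candidates). For *krt8* they were *brip1*, *aftph* and *hmg20b* (0.0545, 0.0573 and 0.0659, median 0.229), and for *krt18a.1* they were *ttc13*, *zgc:110216* and *tgoln2* (0.0547, 0.0725 and 0.0811, median 0.287). A gene with small differences between libraries, such as *krt8*, has many close profiles.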

How the data were processed

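The authors deposited unnormalised counts of exonic reads for each gene, made with STAR (version 2.4.0i in the submitters' processing notes; the methods name another) on GRCz11 and SAMtools, assigning uniquely mapped read pairs to Ensembl loci. By the study's methods, libraries were stranded and depleted of ribosomal RNA, whereas the labels name polyA RNA, which was not resolved. The use of strand in counting is not given, so overlapping genes are uncertain. Symbols came from a table of Ensembl names, and no sequences or transcript lengths were used. The planned sums per kilobase of coding length were therefore given as CPM.

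Counts were analysed with edgeR 4.0.16 in R 4.3.3. Genes were filtered by filterByExpr (16962 kept) and scaled by TMM, and all 9 libraries entered a quasi-likelihood fit (glmQLFit, glmQLFTest, two-sided) with 3 groups. The Benjamini-Hochberg adjustment covered every tested gene, and an adjusted p under 0.05 was the threshold. Standard errors came from the F statistic, and 95% intervals from the t distribution. DESeq2 1.42.0, other scalings and filters, a replicate block and leaving out each library were alternatives.

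The keratins, gene lists and tests were chosen with earlier results of these data known. All listed keratins are named. Of other lists, mainly the 3 largest rises and falls that passed and the gene with the highest average were named. Beside them *evpla*, *grhl3*, *cldne*, *klf17*, *mxtx2*, *slc40a1*, *apoa1a* and the *dsp* identifier were named. A list name ending in a or b without a match was looked up without that letter. *krtcap2* was not counted as a keratin.

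Libraries of a group differed beyond sampling noise (chi-square of 9.87 to 76.1 per degree of freedom), and nothing says that they came from separate clutches, so p-values measure the spread between these samples. Deviations of same-numbered libraries correlated at 0.169 to 0.462 between affected and unaffected libraries. The values were 0.123 to 0.268 between unaffected and WT and 0.0805 to 0.26 between affected and WT libraries. No correlations were computed between libraries of different numbers, so whether the numbers mark pairs was not settled. The main fit had no pairing, and a block for the replicate number over all 9 libraries was an alternative.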

Additional observations from a re-analysis of the deposited data

Results flagged for a closer look

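For 4 keratins the difference of mutant from WT embryos was not the same in affected and unaffected epiboly, by the direct edgeR test between the mutant groups. The log2 fold changes of affected against unaffected embryos were -0.78 for *krt5* (adjusted p = 0.00570), -0.56 for *krt97* (adjusted p = 0.0295), -1.25 for *cyt1* (adjusted p = 0.0368) and -1.18 for *cyt1l* (adjusted p = 0.0386), and in each gene all 3 affected libraries lay below all 3 unaffected libraries. Of all genes 2.99% differed and 12.1% had all affected libraries below all unaffected libraries. Of the 4 calls, only that of *krt5* held under each of the 17 other settings. The adjusted p ran up to 0.111 for *krt97*, 0.147 for *cyt1* and 0.151 for *cyt1l*.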

How the results depend on the processing

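Each keratin had 17 alternative values per comparison, 459 in all. Of these, 407 kept direction and side of the threshold, 26 lost the call, 19 gained it and 7 changed sign. All 7 sign changes came from leaving out a library. In affected against WT embryos *krt5* ranged from -0.0686 to 0.0349 (positive without affected replicate 1 or WT replicate 2), *krt97* from -0.156 to 0.00762 (positive without affected replicate 1) and *krt18a.1* from -0.145 to 0.217 (positive without affected replicate 1, affected replicate 2 or WT replicate 3), while in unaffected against WT embryos *cyt1l* ranged from -0.0125 to 0.508 (negative without unaffected replicate 3). When a library was left out, the number of keratins that differed ranged from 2 to 5 in affected against WT, from 1 to 2 in unaffected against WT and, between affected and unaffected embryos, from 1 to 7. The number of all genes that differed then ranged from 3402 to 5459, from 758 to 1797 and from 42 to 697 in the same order, the lowest being without affected replicate 2, unaffected replicate 2 and affected replicate 2. With the replicate block 7 keratins and 1399 genes differed between affected and unaffected embryos, 2758 genes differed between unaffected and WT embryos, and *krt92* passed in affected against WT embryos (adjusted p = 0.0379). DESeq2 gave 7 keratins and 1224 genes in affected against unaffected embryos, and a fit of the 6 compared libraries alone gave 965 genes in unaffected against WT embryos. Summed type I and type II levels stayed within 1 SD when raw counts over the library total were used. Leaving out 1 of 3 libraries cannot move a group mean by 1 SD. A ratio within a library does not depend on scaling. These settings therefore could not show a change beyond 1 SD, and for the ratio no alternative could. Levels per kilobase of coding length were not run. The settings for genes of the other lists were applied after the data were seen. Low counts limit *krt1-19d*, *krt1-c5*, *elf3*, *mxtx2* and *slc40a1*, and 3 libraries per group limit every call near the threshold.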

Other observations

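Library 3 had the highest value of its group for most keratins: for 8 of the 9 expressed genes among affected, 7 among unaffected and 8 among WT libraries. The same number is the deepest library of every group, with 32417640, 30897569 and 39299268 counts in the same order. Library 3 also had the lowest *mondoa* level of every group, with 12.8 CPM in affected, 13.01 CPM in unaffected and 51.9 CPM in WT embryos. The highest level was 16.1 CPM in affected and 21.01 CPM in unaffected libraries, and WT libraries 1 and 2 had 111 and 113 CPM.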
